A study of Homo sapiens with 6 samples.

Results

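Metallothioneins and ferritins are the metal buffers of the cell, and 10 of their genes were examined for peaks of V5-tagged TAF2: MT2A and MT1A, MT1E, MT1F, MT1G, MT1H, MT1M and MT1X of the metallothionein cluster on chromosome 16, and the ferritin chains FTH1 and FTL. They are 10 of 19987 protein-coding genes on chromosomes that held peaks. The list was drawn up with peaks of these libraries known, and a gene was scored in a library when a peak overlapped its GRCh38 RefSeq span or the 1000 bp on either side of it. Presence of a peak is therefore a description of these genes, and no test was made on it. The samples were 6 ChIP-seq libraries of the HepG2-TAF2-V5 clone, an established human liver cancer line that carries V5-tagged TAF2. They comprised 3 libraries of the V5 immunoprecipitation and 3 controls, which the labels call input in one field and IgG in another, with no further treatment or time named for either group. All libraries came from the same tagged clone, and no untagged line was compared. Peaks were analysed for the V5 group alone, so no value measured in a control stands beside those below, and whether the replicates were separate cultures is not stated.

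Metallothioneins are small, cysteine-rich proteins that bind zinc, copper and cadmium. Their genes are switched on by metal through the transcription factor MTF1, which recognises short metal response elements (MREs) in their promoters, and the liver is a main site of their expression. Ferritin is a hollow shell of heavy chains (FTH1), which oxidise iron, and light chains (FTL), which help to store it as a mineral core. Its synthesis is best known for control at the mRNA, by iron regulatory proteins, and both chain genes are also targets of the antioxidant factor NRF2. TAF2 is a subunit of TFIID, the complex that recognises core promoters.

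The V5 lists held 1599, 2557 and 1887 peaks in replicates 1, 2 and 3, and gave no read counts, so depth is unknown. Each peak carried the authors' fold over background and a −log10 q, which are used here within a list only. The lowest −log10 q listed was between 1.31 and 1.33. Of 8 hepatocyte marker genes, AFP, APOB and HNF4A had a peak in all 3 libraries and APOA1 and SERPINA1 in 2, while ALB, TTR and FGB had none. None of 7 marker genes of blood, neurons and muscle had a peak. Over all protein-coding genes 1.9% had a peak in 3 libraries, 3.76% in at least 2 and 8.67% in any, so an absence from 7 genes says little, and a peak list does not show expression.

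Of the 10 genes, 2 had a peak in replicate 1 (MT2A and FTL), against 3.7% of all protein-coding genes scored by the same rule. In replicate 2 there were 3 (MT2A, FTL and FTH1), against 5.75%, and in replicate 3 the same 3 genes, against 4.87%. A peak in at least 2 libraries was present at 3 of the 10, where all protein-coding genes gave 3.76% and those with a span up to 10000 bp gave 1.85%. A peak in all 3 libraries was present at MT2A and FTL, against 1.9% of all protein-coding genes and 1.01% of the shorter ones. Since the genes were chosen from these peaks, these shares are printed for scale only. The remaining 7 genes, all of the MT1 group, had no peak in any library. Over all protein-coding genes 8.67% had one in any library, and 4.5% of the shorter ones did, so this absence says little. The 3 genes with peaks differed in where the peaks lay and in how closely the libraries matched.

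**Figure D1:**
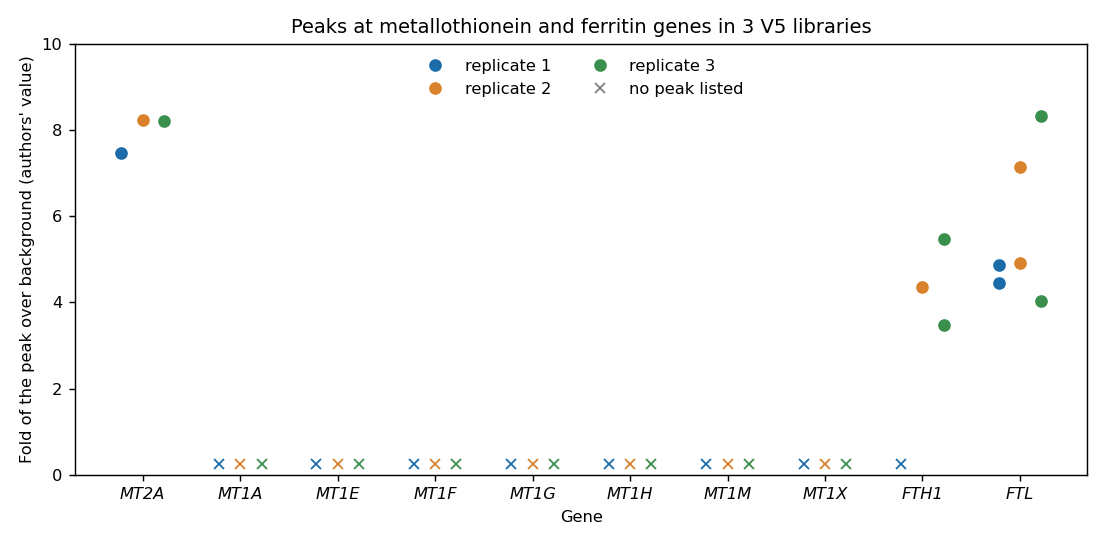
Fold over background (y axis, the authors' value for each peak) of every peak at the 10 genes (x axis) in the 3 V5 libraries, coloured by replicate, with a cross where a library listed no peak. MT2A has 1 peak in each library between 7.47 and 8.24, FTL has 2 in each library, and the 7 MT1 genes have none.

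MT2A (gene ID 4502, chromosome 16, 56608584 to 56609497, plus strand) encodes one of the most widely expressed human metallothioneins. Its peak had a fold of 7.47 in replicate 1, 8.24 in replicate 2 and 8.22 in replicate 3, a mean of 7.98 ± 0.44 (SD, n = 3). The −log10 q was 22.6, 21.7 and 26.2 in the same order. By fold the peak stood at percentile 92.1, 92.7 and 95.0 of its list, and by −log10 q at percentile 96.9, 96.9 and 97.5. All 3 libraries thus placed it high in their lists, and within a narrow range.

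The peak edges at MT2A were nearly the same in each library. They ran from 56608211 to 56608547 in replicate 1, from 56608213 to 56608547 in replicate 2 and from 56608213 to 56608551 in replicate 3, with widths of 337, 335 and 339 bp. The lower edges differed by 2 bp and the upper edges by 4 bp. Over the 556 merged regions with exactly 1 peak from each library, the median difference was 72 bp for lower and 75 bp for upper edges, and in 3 of these regions (0.54%, MT2A included) neither edge differed by more than 4 bp. The summits agreed less well, at 156, 135 and 252 bp before the annotated start. That is a range of 117 bp, and 32.0% of the 556 regions had a range at least as large. The region is wider than most, since 33.1% of the 556 had a larger mean width.

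No peak reached into the MT2A gene. The upper edge lay 37, 37 and 33 bp short of the annotated start, so the peaks covered the upstream promoter and ended before the TATA box. With the span alone, without the 1000 bp on either side, MT2A held no peak in any library. A gene can have several annotated starts. Among the 40 genes with the window of one and the same start, 250 bp before to 50 bp after it, touched by a peak in all 3 libraries, the strongest peak ended before the start in every library at 7 (17.5%), MT2A among them. The median summit over these 40 genes lay at -107 bp, and MT2A ranked 7th by mean percentile. Where a gene had several such starts, the first listed was used. The 40 genes are not all separate regions, as SNX5 and MGME1 have the same strongest peaks. The share and the median thus count some peaks more than once. Of the 15812 protein-coding genes in the RefSeq promoter table, a peak touched that window at 0.879, 1.45 and 1.9% in replicates 1, 2 and 3, at 0.892% in at least 2 libraries and at 0.272% in all 3, which is 43 genes because here the libraries may touch different starts of a gene. The peaks also covered 223, 221 and 221 bp of LOC124903695, a noncoding RNA gene on the opposite strand whose start (56608433) lies under them, and ChIP does not assign a peak to either gene.

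The RefSeq promoter table (GRCh38.p14) matched 4 of the 10 genes, MT2A, MT1H, MT1X and FTL. The 250 bases before the start are shown for the 3 metallothionein genes, because MT2A had a peak over them in every library and the others in none. Capitals mark the core of the MRE, searched as TGCACNC and TGCGCNC on both strands, with overlapping matches counted separately. All are on the plus strand, 5′ to 3′, ending at the base before the start (MT2A chr16:56608334-56608583, MT1H chr16:56669564-56669813, MT1X chr16:56682220-56682469).
MT2A: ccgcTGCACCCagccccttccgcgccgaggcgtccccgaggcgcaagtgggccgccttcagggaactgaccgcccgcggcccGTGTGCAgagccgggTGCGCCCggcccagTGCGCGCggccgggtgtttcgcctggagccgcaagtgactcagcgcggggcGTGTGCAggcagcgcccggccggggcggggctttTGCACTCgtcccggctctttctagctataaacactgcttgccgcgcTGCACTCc
MT1H: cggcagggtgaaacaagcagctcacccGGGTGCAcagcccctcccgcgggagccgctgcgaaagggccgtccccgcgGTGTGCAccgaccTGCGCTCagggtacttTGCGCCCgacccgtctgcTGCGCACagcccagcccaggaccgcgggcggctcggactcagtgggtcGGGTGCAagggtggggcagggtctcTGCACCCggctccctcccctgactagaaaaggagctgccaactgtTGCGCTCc
MT1X: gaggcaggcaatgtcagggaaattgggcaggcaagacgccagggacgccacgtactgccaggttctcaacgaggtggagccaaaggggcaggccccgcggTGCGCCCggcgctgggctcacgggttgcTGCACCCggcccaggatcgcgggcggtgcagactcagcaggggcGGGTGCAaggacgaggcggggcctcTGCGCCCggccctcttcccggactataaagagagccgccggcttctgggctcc

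The MT2A stretch held 7 MRE cores, from 246 to 8 bp before the start (position of the first base). The peaks of all 3 libraries covered 6 of them, and the seventh lay past the upper edge of the peaks. MT1H held 8 cores, from 223 to 8 bp before its start, and MT1X held 4, from 150 to 53 bp before its start. Both promoters thus carried the same core motif with no peak over it. At least 1 core was found in 28.5% of 22132 promoter stretches of the same length, at least 4 in 0.416%, at least 7 in 0.0316% and at least 8 in 0.0181%. A TATA box, searched as TATAAA on the gene strand, began 29 bp before the start of MT2A and 30 bp before that of MT1X and was not found in MT1H, against 6.16% of promoters with a match. The antioxidant response element, searched as TGACNNNGC on both strands, matched once in MT2A, 104 bp before the start and under the peaks of all 3 libraries, and overlapped there with TGACTCA, the site of the AP-1 factors. It matched once in MT1X, 243 bp before the start, not at all in MT1H, and in 11.2% of all promoters. GC boxes (GGGCGG on both strands) numbered 2 in MT2A, 1 in MT1H and 2 in MT1X, and 53.7% of promoters held at least 1. A match is a run of letters and not a bound site.

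The 16 annotated metallothionein genes and pseudogenes of chromosome 16 lie within 119 kb (56565073 to 56684196), and the peak before MT2A was the single peak in that interval in each library. MT1E (56625781 to 56627112), MT1M (56632659 to 56633981) and MT1A (56638666 to 56640087) follow MT2A along the chromosome, then MT1F (56657959 to 56659303), MT1G (56666730 to 56668065), MT1H (56669814 to 56671129) and MT1X (56682470 to 56684196). They encode closely related metallothionein 1 proteins. For each of these 7 genes the nearest peak in every library was the one at MT2A, between 17.2 kb (MT1E) and 73.9 kb (MT1X) away, so no MT1 gene came near the 1000 bp limit. The 8 other metallothionein genes of the cluster, which include the brain form MT3 and the squamous epithelium form MT4, had no peak either. Neither did the 5 metallothionein genes and pseudogenes on other chromosomes. In any library a peak was present at 4.5% of protein-coding genes with a span up to 10000 bp and at 0.39% of pseudogenes. The absences at these genes and at the 7 MT1 genes therefore say little. Near-identical gene copies can lose reads that fit several places, and how such reads were treated is not given in the sources used here. The longest identical run between the printed stretches was 12 bases for MT2A and MT1X, 8 for MT2A and MT1H and 11 for MT1H and MT1X. The gene bodies and the other MT1 genes were not compared, so these runs do not show how well reads could be placed. The effect of shared sequence on the empty MT1 genes was not tested.

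**Figure D2:**
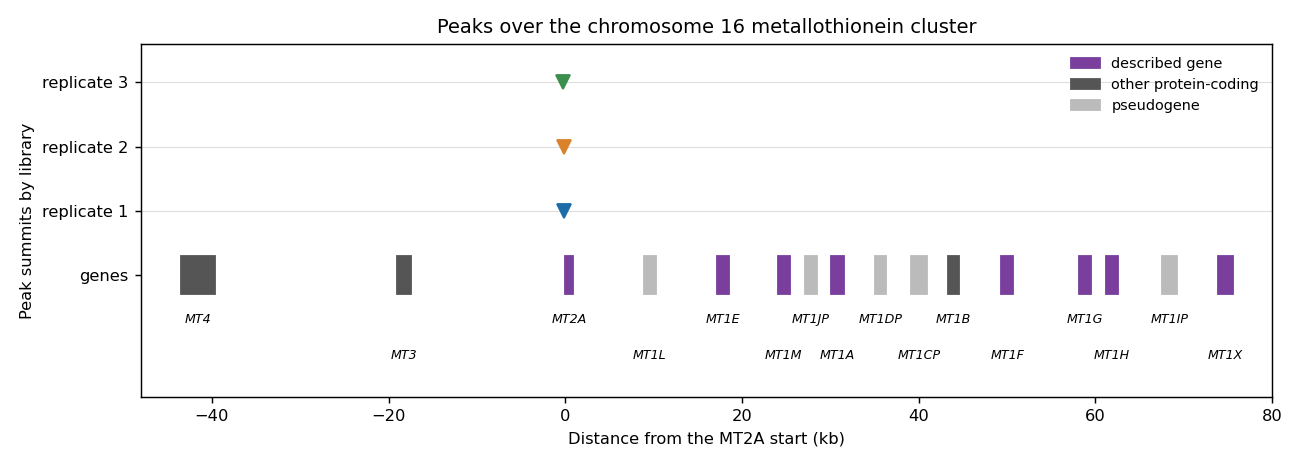
The metallothionein cluster of chromosome 16, with distance from the MT2A start in kb (x axis), annotated genes as boxes and the summits of peaks as triangles in a row for each V5 library. In each library 1 peak falls in the cluster, just before MT2A, and none lies at the 7 MT1 genes examined.

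FTL (gene ID 2512, chromosome 19, 48965309 to 48966879, plus strand), the ferritin light chain gene, had 2 peaks in each library. The stronger peak lay past the 3′ end of the gene. Its fold was 4.88 in replicate 1, 7.14 in replicate 2 and 8.33 in replicate 3, a mean of 6.78 ± 1.75 (SD, n = 3), and its −log10 q was 5.41, 9.72 and 14.8. It stood at percentile 46.0 of the list in replicate 1, 85.4 in replicate 2 and 95.2 in replicate 3, so that replicate 1 placed it far below the other libraries.

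This downstream peak was broad, at 1048, 885 and 925 bp, and 860 bp (48967333 to 48968192) were common to all 3 libraries. It began 298, 429 and 454 bp past the end of FTL, and its summits lay 799, 1152 and 1035 bp past that end. It is therefore counted at FTL through its near edge, and in replicates 2 and 3 the summit fell outside the 1000 bp limit. The same peak covered 95, 63 and 128 bp of GYS1 (48968130 to 48993309, minus strand), the muscle form of glycogen synthase, at the 3′ end of that gene. It thus sat between the 3′ ends of FTL and GYS1, which face each other. With a limit of 250 bp the downstream peak dropped out, and the mean percentile of the strongest FTL peak was then 29.0 ± 11.99 (SD, n = 3). That mean joins a peak inside the gene in replicate 1 with peaks at the start in replicates 2 and 3.

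At the start of FTL a weaker peak was listed in 2 of 3 libraries. In replicate 2 it ran from 48965072 to 48965352 with its summit 8 bp before the start, a fold of 4.90 and a −log10 q of 7.09 (percentile 39.2 by fold). In replicate 3 it ran from 48964881 to 48965420 with its summit 67 bp inside the gene, a fold of 4.03 and a −log10 q of 3.41 (percentile 15.8). Replicate 1 listed no peak at the start and instead a peak inside the gene (48966309 to 48966487, fold 4.44, −log10 q 2.84), with its summit 1155 bp past the start. Unlike the peaks at MT2A, those at the FTL start spanned the start site itself, in the libraries that had them. The promoter of FTL is shown because these peaks covered most of it in replicate 2 and all of it in replicate 3, with GC boxes (GGGCGG, both strands) in capitals (plus strand, chr19:48965059-48965308).
FTL: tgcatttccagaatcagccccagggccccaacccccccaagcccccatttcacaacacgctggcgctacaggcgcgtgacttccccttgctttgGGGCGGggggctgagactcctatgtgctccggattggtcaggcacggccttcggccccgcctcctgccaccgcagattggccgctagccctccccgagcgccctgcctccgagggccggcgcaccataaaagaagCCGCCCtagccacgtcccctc

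The FTL stretch held no MRE core, no TATAAA and no match to the antioxidant response element, which says only that these letters are not in this window. It held 2 GC boxes, 156 and 21 bp before the start, both under the peaks of replicates 2 and 3. Its summits, 8 bp before and 67 bp past the start, were nearer to the start than those of MT2A.

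**Figure D3:**
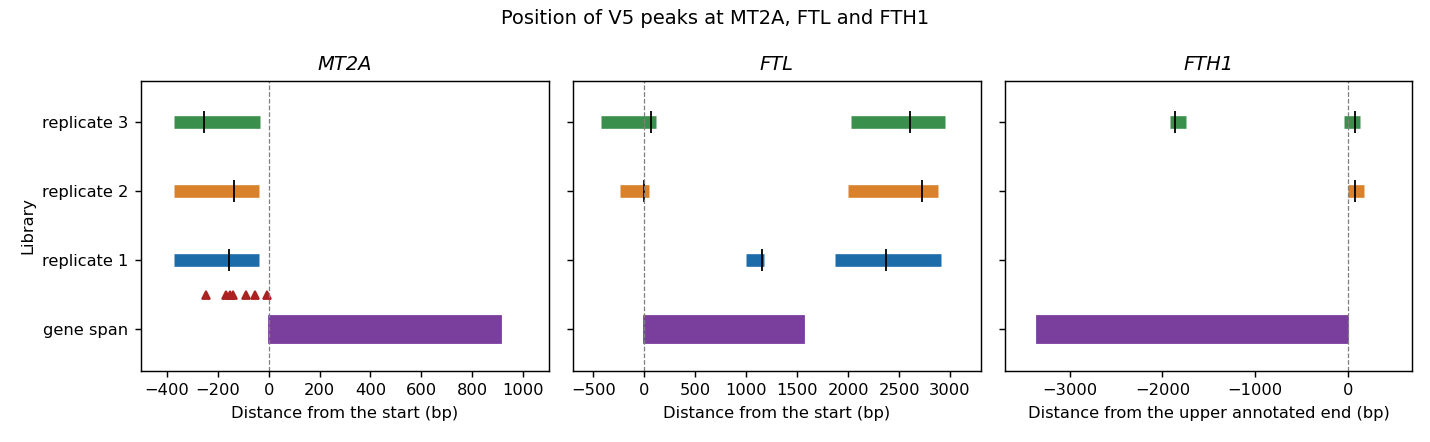
Peaks (bars, coloured by V5 library) and their summits (black ticks) at MT2A, FTL and FTH1, with the gene span in purple and MRE cores of MT2A as red triangles. The x axis is distance in bp from the start, or for FTH1 from its upper annotated end; the MT2A peaks stop 33 to 37 bp before the start, and the broad FTL peaks lie past the end of the gene.

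FTH1 (gene ID 2495, chromosome 11, 61964285 to 61967634) encodes the ferritin heavy chain and is known to be transcribed from its upper end. It had no peak in replicate 1, where the nearest peak was 194 kb away. Replicate 2 listed a peak from 61967637 to 61967816, 3 bp beyond the upper end, with a fold of 4.37 and a −log10 q of 3.34 (percentile 22.1 by fold). Replicate 3 listed a peak at the same place, from 61967597 to 61967773, with a fold of 3.47 and a −log10 q of 1.56 (percentile 5.17), close to the lowest value of that list. The 2 summits lay 80 and 79 bp beyond the upper end, 1 base apart, although both peaks were weak within their lists. Replicate 3 also had a peak inside the gene (61965714 to 61965892, fold 5.48, −log10 q 4.32, percentile 63.4) that no other library had, and this was its stronger peak. The peaks at the upper end lay wholly within LOC399900, a noncoding RNA gene on the plus strand (61967294 to 61968879). The inner peak lay within 1000 bp of BEST1, whose annotated span runs into the lower part of FTH1.

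Both ferritin genes therefore had a peak at or beside the start in replicates 2 and 3 and none there in replicate 1, the shortest list. MT2A had its promoter peak in all 3. With peaks of −log10 q of at least 5, FTH1 had none in any library, while MT2A kept its peak and FTL its downstream peak in each. Of the peaks at the FTL start, the one of replicate 2 was kept and the one of replicate 3 was not.

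Mean rank percentile put MT2A at place 49 and FTL at place 158 of the 380 protein-coding genes with a peak in all 3 libraries. These are not 380 separate regions. Neighbouring genes with the same strongest peaks are counted separately, such as TTL and POLR1B (both at 99.8) and UGT1A8 and UGT1A10 (both at 91.1). Places and the median SD thus count some peaks more than once. The percentile of MT2A varied by an SD of 1.51 points over the libraries and that of FTL by 26.1, where the median over the 380 genes was 13.1. The place and SD of FTL are those of the downstream peak, which it shares with GYS1. Its mean percentile fell from 75.5 to 29.0 with a limit of 250 bp and to 33.6 with the summit required inside the 1000 bp limit. The SD is bounded for peaks near the top of a list, so a small SD at MT2A goes with its high rank.

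**Figure D4:**
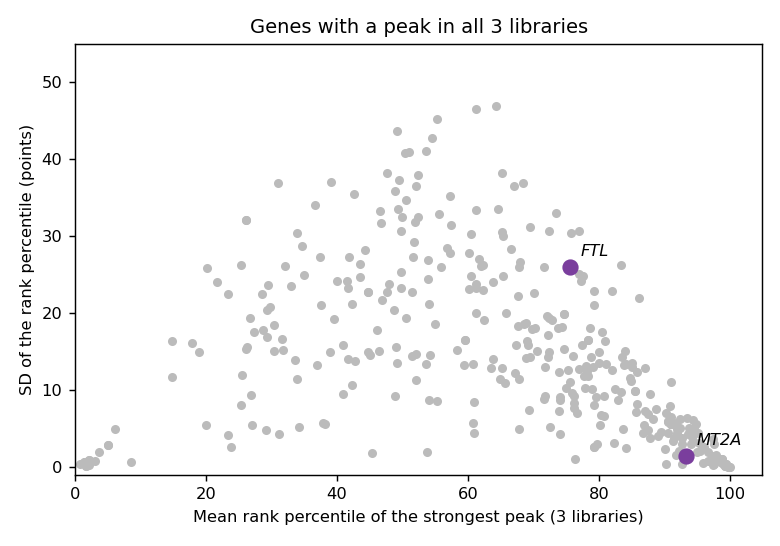
Mean rank percentile by fold of the strongest peak over the 3 V5 libraries (x axis) against its SD in percentile points (y axis) for the 380 protein-coding genes with a peak in all 3 (grey), with MT2A and FTL in purple. MT2A lies at 93.3 with an SD of 1.51 and FTL at 75.5 with an SD of 26.1.

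Among the protein-coding genes closest to MT2A in their 3 percentiles were CPLX2, a complexin of synaptic vesicle release, with a summed difference of 5.37 points, and ARSG, an arylsulfatase, with 5.83. CPLX2 stood at percentile 92.7, 96.6 and 95.8. The closest to FTL were XBP1, a transcription factor of the unfolded protein response, with 16.2 points, AKR1C1, an aldo-keto reductase, with 17.3, and AGT, which encodes angiotensinogen, with 19.9. XBP1 stood at percentile 40.7, 93.9 and 92.7, low in replicate 1 as the downstream peak of FTL was, and the likeness to FTL is to that peak. These likenesses rest on 3 libraries and describe rank alone.

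Genes that move, sense and store the same metals were then counted. Of 36 genes of zinc and copper handling, 1 had a peak in at least 2 libraries (2.78%) and 3 in any library (8.33%), near the 3.76% and 8.67% of all protein-coding genes. Among protein-coding genes with a span up to 10000 bp, 4.5% had one in any library. Of the 3 genes with a peak, SLC39A14 (66852 bp) and SLC30A6 (58516 bp) are longer than that. MTF1, the MRE-binding factor, had no peak, and neither did the copper transporters ATP7A and ATP7B. SLC39A14, an importer of zinc and iron, had a peak in replicate 1 (fold 3.65) and in replicate 2 (fold 4.43), and these did not overlap. It was the 1 gene of the list with 2 libraries, so without either of these the list held none. SLC30A1, the zinc exporter of the plasma membrane and itself an MTF1 target, had a peak in replicate 3 alone (fold 4.999, percentile 47.0), with its summit 255 bp before the start. SLC30A6, a zinc transporter of the Golgi, had one in replicate 3 alone (fold 5.28), 52 bp before its start.

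Of 42 genes of iron handling, 3 had a peak in at least 2 libraries (7.14%) and 6 in any library (14.3%), against 3.76% and 8.67% of all protein-coding genes. The share varies with span, since genes of up to 10000 bp gave 1.85% and 4.5%. The 6 iron genes with a peak were long, from 25536 bp (NCOA4) to 229198 bp (LYRM4), and the effect of span on the iron share was not tested. TFRC, the transferrin receptor, had a peak in replicate 2 inside the gene (fold 5.82, percentile 65.3) and one in replicate 3 with its summit 62 bp before the start (fold 4.81, percentile 40.0). These 2 peaks lay at different places. TF, the plasma iron carrier transferrin, had overlapping peaks in replicates 1 and 2 (folds 5.75 and 5.25) far inside its annotated span. NCOA4, the receptor that delivers ferritin for degradation, had 1 peak in replicate 1 and 2 in replicate 3. The strongest peaks of these libraries (folds 4.07 and 5.03) did not overlap, and the weaker peak of replicate 3 was not compared. The others were STEAP3, an iron reductase, in replicate 1 (fold 3.58, summit 132 bp before the start), and LYRM4 and BLVRA, of iron-sulfur cluster assembly and haem breakdown, in replicate 2 (folds 3.94 and 3.44). No gene of either list had a peak in all 3 libraries, and the iron regulatory genes ACO1 and IREB2, the iron exporter SLC40A1 and the hormone gene HAMP had none. Leaving out any single replicate left 1 iron gene with 2 libraries, because TF, NCOA4 and TFRC each had peaks in a different pair.

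Genes with a ferritin copy symbol were also counted. None of these 49, of which 48 are pseudogenes, had a peak in any library. Of all 16664 pseudogenes 0.39% had one and 0.126% had peaks in at least 2, so an absence from 49 says little. Copies of this kind can also lose reads that fit several places, which was not tested.

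**Figure D5:**
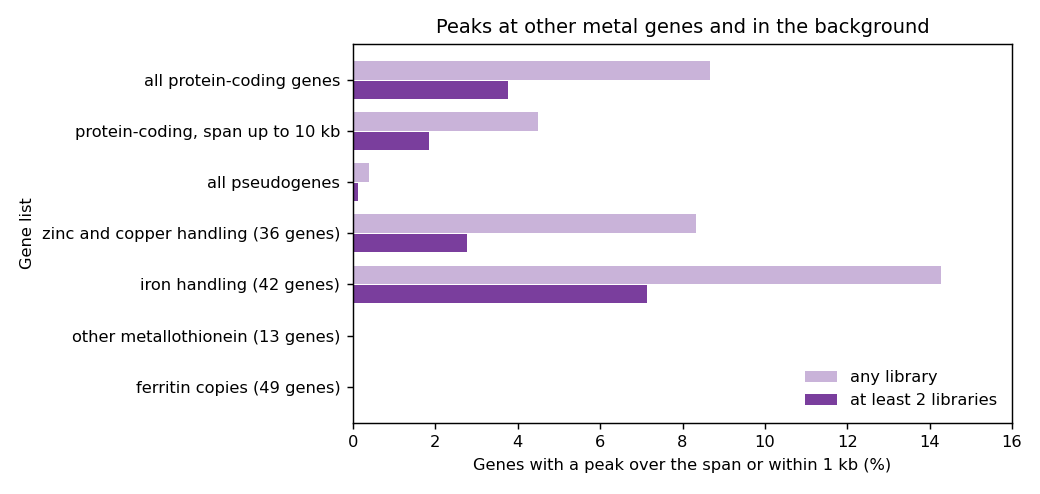
Percent of genes with a peak over the span or within 1000 bp (x axis) in any library (light) and in at least 2 libraries (dark), for the background groups and the 4 metal lists (y axis). Zinc and copper genes lie near all protein-coding genes, at 2.78 and 3.76% for at least 2 libraries, iron genes are at 7.14%, and other metallothionein genes and ferritin copies are at 0.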

How the data were processed

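ChIP-seq peaks of 3 V5 libraries of the HepG2-TAF2-V5 clone were used, and the 3 controls entered no step. Per the labels the build was GRCh38, while alignment, peak calling with its cutoff, and the control used were not given in the sources used here. The deposited fold is the authors' linear ratio of a peak to background, and the deposited −log10 p and −log10 q are the caller's own. The deposited score equals 10 times the −log10 q, rounded down, and it and −log10 p were not used. The deposited files give no depth, so precision rests on the spread of 3 libraries.

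A gene was scored with an overlap of at least 1 bp between a peak and its RefSeq span extended by 1000 bp. The strongest peak of a gene was the one with the highest fold, and ranks are percentiles of the whole list. The 10 genes, the metal lists and the rule for naming genes were chosen with earlier results of these data known. The rule named all 10 genes, metal-list genes with a peak, and the 3 genes nearest in percentile to each of MT2A and FTL. To leave out genes that might share a peak, those within 20000 bp of the gene compared were dropped from the nearest genes. An item that the rule names is not reported here. Further list genes without a peak, and promoter, edge and motif comparisons, were chosen after the values were seen. Alternatives covered window, summit, −log10 q, fold, list length, overlap and each replicate left out. The overlap code was tested on simulated data. Calculations used Python 3.11.15, numpy 2.4.6, pandas 2.3.3 and matplotlib 3.10.9.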

Additional observations from a re-analysis of the deposited data

How the results depend on the processing

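Of 125 values under alternatives, 97 stayed within 1.5 times the count, or within 1 SD of the mean percentile, and 28 did not. This tally does not measure stability, since some values could not move under a stricter setting. The ferritin copies and the other metallothionein genes were at 0 in all 11 alternatives each. Percentiles are ranks in the whole list, so MT2A stayed at 93.3 under each filter that kept its peak. With the gene span alone, 1 gene had peaks in at least 2 libraries and 1 in all 3 (FTL), 1 had a peak in replicate 1 and 1 in replicate 2, the mean percentile of FTL was 29.0, and 0 zinc and copper genes had 2 libraries. The FTL peak of replicate 1 was then the one inside the gene, which did not overlap those of replicates 2 and 3 at the start. With a window of 250 bp the FTL percentile was 29.0, and with the summit inside the window 33.6. Ranked by −log10 q, MT2A stood at 97.1. With a fold of at least 5, 1 of the 10 genes was left in all 3 libraries and 1 in replicate 1 (MT2A), 1 iron gene and 0 zinc and copper genes had 2 libraries, and 408 protein-coding genes did, against 751. With −log10 q of at least 3, 0 zinc and copper genes had 2 libraries. With −log10 q of at least 5 these were 0 zinc and copper, 0 iron and 382 protein-coding genes, and with the strongest 1000 peaks 0, 0 and 388. Leaving out each replicate gave 2 to 3 of the 10 genes in at least 2 libraries and in all that were left, 1 iron gene each time, 0 to 1 zinc and copper genes, 452 (without replicate 2) to 562 protein-coding genes, with 497 without replicate 3, and percentiles of 65.7 to 90.3 for FTL and 92.4 to 93.8 for MT2A. Per-library counts have no value with a replicate left out, and percentiles none where a filter removed a library. No paired analysis was possible because only the V5 group has peak lists and the counts come from no test. The lists hold no read counts, so a gene without a peak may lie below what the depth of a library could show.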
